A study of Mus musculus with 12 samples.

Results

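Complex I, the NADH:ubiquinone oxidoreductase of the inner mitochondrial membrane, takes electrons from NADH, passes them to ubiquinone and pumps protons as it does so. Its matrix arm is built from subunits encoded in the nucleus, while the 7 mt-Nd genes of mitochondrial DNA (mtDNA) encode the hydrophobic core of its membrane arm. Heart muscle is dense with mitochondria and depends on this chain for most of its ATP. The 7 genes mt-Nd1, mt-Nd2, mt-Nd3, mt-Nd4, mt-Nd4l, mt-Nd5 and mt-Nd6 were taken by name from a count table of 23457 genes, in which they are listed by Ensembl identifier, and all 7 were found. They are 7 of the 13 mRNAs of mtDNA, and all 7 passed the low-count filter that left 13050 genes.

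The 12 hearts came from adult mice of the C57BL/6J background, sampled 9 to 10 weeks after tamoxifen. The Parkin KO group comprised 6 hearts with floxed Parkin alleles and the tamoxifen-inducible recombinase MERCreMer. The noninduced group comprised 6 hearts labelled as carrying the floxed alleles and no Cre. Parkin is a ubiquitin ligase that tags damaged mitochondria for their removal, and the comparison asked how its loss in adult heart muscle alters messenger RNA. The labels give MERCreMer to the Parkin KO group alone, so by the design effects of the recombinase and of Parkin loss cannot be told apart. The labels give the tissue as whole heart and the protocol gives the ventricular apex, and they do not name the promoter that drives MERCreMer. Nothing in the labels pools animals. Polyadenylated RNA was sequenced single-end without strand information, at 13787150 to 16736228 counts per Parkin KO library and 11610507 to 16884516 counts per noninduced library.

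Library checks bear on the labels. Park2, the Parkin gene, had 24 to 45 reads in Parkin KO and 24 to 45 reads in noninduced libraries, and which of these reads lie in the floxed part cannot be read from a count per gene. Esr1, on which reads of MERCreMer can fall, stood at 1553 to 4683 CPM in Parkin KO libraries, against 24.0 to 64.9 CPM in 4 noninduced libraries and 558 and 962 CPM in the libraries labelled noninduced 1 and 3. CPM are counts scaled to a common library size, with TMM normalization. Markers of ventricular muscle were abundant in all libraries, with the 12 markers summing to 96927 to 117264 CPM in Parkin KO hearts, against 77981 to 111678 CPM in the noninduced hearts. The 8 atrial markers summed to 197 to 1591 CPM in Parkin KO hearts and to 167 to 6155 CPM in noninduced hearts, with 3477, 6155 and 4115 CPM in noninduced 2, 5 and 6. Parkin KO libraries 2, 5 and 6 had 590, 495 and 634 Y-linked reads and were called male, at a minimum of 100 such reads. The library labelled noninduced 3 had 178 Y-linked reads beside 1192 reads of Xist, and the other 8 libraries had 0 to 7 Y-linked reads and were called female.

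All 7 genes lie on the circular mitochondrial chromosome (chrM, build GRCm38, the assembly that mm10 also names). Mitochondrial DNA is transcribed as long precursors that are cut mainly at tRNAs, mt-Nd4l and mt-Nd4 stay together on a bicistronic mRNA, and mt-Nd6 is the only mRNA gene on the opposite strand. In human cells the ND6 mRNA lacks a stable poly(A) tail. The annotated genes run from chrM:2751-3707 for mt-Nd1, chrM:3914-4951 for mt-Nd2, chrM:9459-9806 for mt-Nd3, chrM:9877-10173 for mt-Nd4l, chrM:10167-11544 for mt-Nd4 and chrM:11742-13565 for mt-Nd5 on the plus strand, and chrM:13552-14070 for mt-Nd6 on the minus strand. Each is a coding gene with no intron.

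Their ends show where a read cannot be given to a single gene, and where the message needs its tail. In the first 4 sequences capitals mark the bases that the gene shares with its neighbour, 7 bases between mt-Nd4l and mt-Nd4 on the same strand and 14 bases between mt-Nd5 and mt-Nd6 on opposite strands. In the last 4 they mark the stop codon as far as it is encoded. All are 30 bases read 5′ to 3′ on the gene's own strand, from the GENCODE M21 transcripts.
mt-Nd4l end: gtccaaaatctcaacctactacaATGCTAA
mt-Nd4 start: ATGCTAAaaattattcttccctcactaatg
mt-Nd5 end: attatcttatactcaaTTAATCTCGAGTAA
mt-Nd6 end: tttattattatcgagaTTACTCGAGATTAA
mt-Nd1 end: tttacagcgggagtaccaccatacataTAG
mt-Nd2 end: ctacccctagccccccaactaattaccTAG
mt-Nd3 end: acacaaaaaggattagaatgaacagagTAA
mt-Nd4 end: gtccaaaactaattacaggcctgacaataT
The shared bases hold the stop codon of mt-Nd4l and the start codon of mt-Nd4. The mt-Nd4 gene ends 1 base past its 459 whole codons, on a T that polyadenylation turns into a stop codon. The other 6 genes as annotated have a whole number of codons. However, mt-Nd1 ends at chrM:3707 and mt-Nd2 at chrM:4951, past the starts of the tRNA genes mt-Ti (chrM:3706) and mt-Tw (chrM:4950) on the same strand. Part of the TAG of each is thus also annotated as tRNA, and whether their mRNAs hold the whole codon was not tested. The strand shows in the base composition, with 28.1% G and 5.97% C in the coding sequence of mt-Nd6, against 7.996 to 11.6% G and 22.1 to 29.97% C in the other 6. Because the libraries keep no strand, reads of mt-Nd6 and reads of precursor RNA from the opposite strand across its locus cannot be told apart.

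Together the 7 genes took 3.03, 3.61, 1.86, 2.22, 3.003 and 2.72% of all counts in Parkin KO libraries 1 to 6, against 7.21, 6.15, 3.91, 2.23, 3.22 and 2.96% in noninduced libraries 1 to 6. The means were 2.74 ± 0.625% in Parkin KO and 4.28 ± 1.97% in noninduced hearts (SD, n = 6 each). Noninduced 1, 2 and 3 lay above every Parkin KO library, noninduced 4, 5 and 6 lay within the Parkin KO range, and Parkin KO 3 and 4 lay below every noninduced library. However, Parkin KO 4 was nearly equal to noninduced 4 (2.220 and 2.226%). By summed CPM it lay above noninduced 4 (21698 and 21424 CPM). The difference between the mean shares is smaller than the noninduced SD. In bulk tissue fewer cells of a type and less RNA per cell cannot be told apart. Of the 12 ventricular markers 10 had log2 fold changes above 0 and 2 below, with a median of 0.12, where 52% of all genes tested were above 0. Of the 8 atrial markers 8 were below 0, with a median of -3.53, where 48% of all genes were below 0. In both lists 0 genes passed an adjusted p of 0.05 (edgeR).

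**Figure D1:**
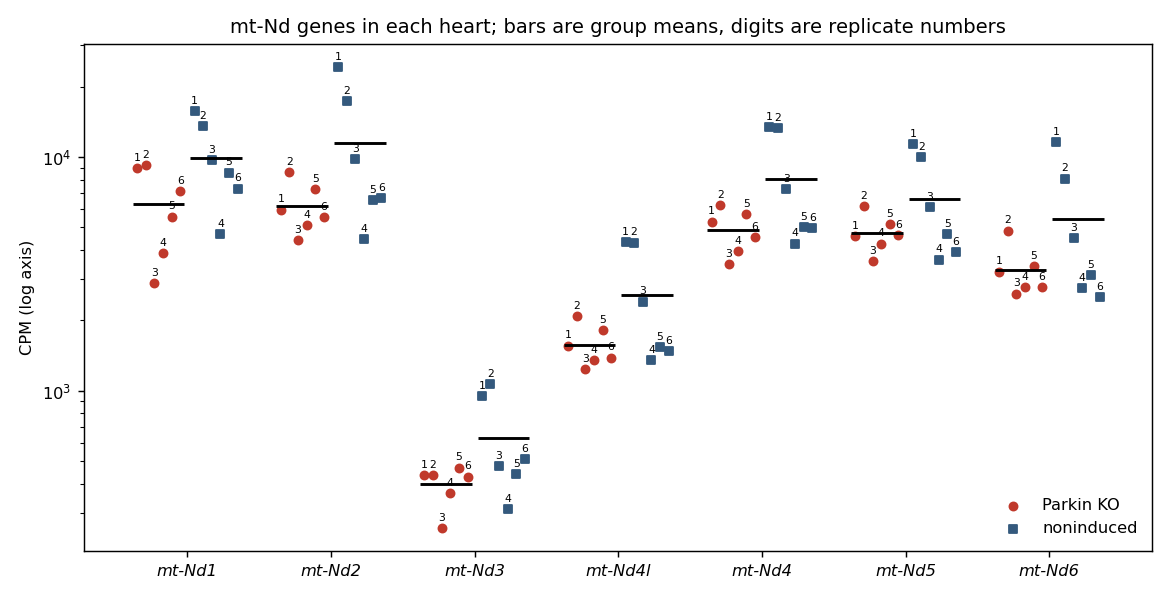
CPM of each mt-Nd gene (log axis) in the 6 Parkin KO hearts (circles) and the 6 noninduced hearts (squares), with the arithmetic mean of each group as a bar and the replicate number above each point. Noninduced 1 and 2 are the 2 highest libraries for all 7 genes, while noninduced 4, 5 and 6 lie within the Parkin KO range, except that noninduced 6 lies above it for mt-Nd3 (510.0 CPM) and below it for mt-Nd6 (2506 CPM).

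The gene mt-Nd1 encodes the subunit that forms much of the channel by which ubiquinone enters the complex. It stood at 8979, 9203, 2879.9, 3880.4, 5562 and 7119 CPM in Parkin KO libraries 1 to 6, against 15683, 13556, 9660.0, 4667, 8569 and 7314 CPM in noninduced libraries 1 to 6. Parkin KO 1 and 2 lay among the middle noninduced libraries and only Parkin KO 3 and 4 lay below all of them. The log2 fold change was -0.66 ± 0.315 (SE), and the 95% confidence interval of -1.33 to 0.0127 held 0 (edgeR, adjusted p = 0.438). Its variation was as wide in Parkin KO as in noninduced hearts, with an SD of 41.8% and 41.0% of the mean, unlike the other 6 genes, whose SD was 18.5 to 25.3% of the mean in Parkin KO and 49.1 to 67.5% in noninduced hearts.

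The genes mt-Nd2, mt-Nd4 and mt-Nd5 encode the antiporter-like subunits, which lie along the membrane arm and form proton pathways. mt-Nd2 stood at 5949.8, 8599, 4404, 5108, 7277 and 5541 CPM in Parkin KO libraries 1 to 6, against 24253, 17368, 9824, 4451, 6544 and 6676 CPM in noninduced libraries 1 to 6. The library labelled noninduced 1 stood far above the highest Parkin KO library, and noninduced 4 lay beside the lowest. Of the 7 genes mt-Nd2 had the lowest log2 fold change, -0.91 ± 0.353 (SE), with an interval of -1.66 to -0.153 (edgeR, adjusted p = 0.424). mt-Nd4 stood at 5287, 6222, 3489.7, 3951, 5679 and 4532 CPM in Parkin KO libraries, against 13430.1, 13324, 7281, 4259, 5028 and 4971 CPM in noninduced libraries. Noninduced 1, 2 and 3 lay above every Parkin KO library and the rest overlapped, with a log2 fold change of -0.73 ± 0.288 (SE; edgeR, adjusted p = 0.424).

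mt-Nd5, the longest of the 7 genes at 1824 bases and that of the subunit at the far tip of the arm, had the log2 fold change nearest to 0. It stood at 4601, 6172, 3574, 4260.1, 5149.6 and 4617 CPM in Parkin KO libraries 1 to 6, against 11333, 10022, 6085, 3641, 4662 and 3925 CPM in noninduced libraries 1 to 6. Only noninduced 1 and 2 lay above every Parkin KO library. The log2 fold change was -0.48 ± 0.267 (SE), with an interval of -1.05 to 0.0872 (edgeR, adjusted p = 0.469).

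The genes mt-Nd3, mt-Nd4l and mt-Nd6 encode small subunits between the quinone site and the antiporter-like subunits. mt-Nd3 stood at 436, 435, 259, 365, 468 and 429 CPM in Parkin KO libraries 1 to 6, against 952, 1069, 475, 311, 439.6 and 510.0 CPM in noninduced libraries 1 to 6. By CPM it was the only one of the 7 for which noninduced 2 was higher than noninduced 1. By FPKM noninduced 2 was the highest noninduced library for mt-Nd4 and mt-Nd4l as well. For mt-Nd3 all 6 Parkin KO libraries lay below the noninduced median of 493 CPM, and the log2 fold change was -0.65 ± 0.264 (SE; edgeR, adjusted p = 0.424). mt-Nd4l stood at 1559, 2080.1, 1237, 1349.9, 1820.5 and 1384 CPM in Parkin KO libraries, against 4325, 4305, 2406, 1348, 1536 and 1481 CPM in noninduced libraries, and its log2 fold change was -0.71 ± 0.291 (SE; edgeR, adjusted p = 0.424). The libraries fell in nearly the same order as for mt-Nd4, its partner on the bicistronic mRNA. mt-Nd6, from the opposite strand, stood at 3235, 4846, 2605, 2784, 3402 and 2777 CPM in Parkin KO libraries, against 11620.2, 8076, 4491, 2748, 3133 and 2506 CPM in noninduced libraries. By CPM noninduced 6 was the lowest of all 12 libraries for mt-Nd6, while by FPKM Parkin KO 3 was lower (8065 against 8271 FPKM). The log2 fold change of mt-Nd6 was -0.73 ± 0.344 (SE), with an interval of -1.46 to 0.00515 (edgeR, adjusted p = 0.438).

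Thus 0 of the 7 mt-Nd genes passed the threshold of an adjusted p of 0.05 in edgeR's quasi-likelihood test, as did 0% of the 13050 genes tested, and 0 passed with DESeq2, which called 0.0766% of all genes, or with limma-voom, which called 0%. Log2 fold changes were below 0 for 7 of 7 mt-Nd genes, and for 48% of all genes tested, and they were -0.4 or lower for 7 of 7, and for 5.3% of all genes. At an unadjusted p under 0.05, 4 of the 7 were lower in Parkin KO (mt-Nd2, mt-Nd3, mt-Nd4 and mt-Nd4l), against 5.54% of all genes. The members share transcripts, libraries and a common level, so they are not separate observations. The median log2 fold change was -0.71 over the 7 genes and 0.01 over all genes tested. The Parkin KO and noninduced ranges overlapped for all 7, and 0.345% of all genes had ranges that did not overlap.

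The values depended on which hearts were included. Without the library labelled noninduced 1 the median of the 7 was -0.51 and 0 of them had an unadjusted p under 0.05 (edgeR). mt-Nd2 was then at -0.56, mt-Nd5 at -0.28 and mt-Nd6 at -0.37. Without noninduced 2 the median was -0.55 and again 0 had an unadjusted p under 0.05, while without noninduced 4, or without noninduced 6, all 7 did, with medians of -0.85 and -0.84. Without Parkin KO 3 the number was 1. Without the libraries labelled noninduced 1 and 3, in which Esr1 goes against the label, the median was -0.48 and 0 of the 7 had an unadjusted p under 0.05. Among the 3 Parkin KO and 5 noninduced libraries called female it was -0.92, with 3 of the 7 under 0.05 and 0 past the adjusted threshold. All 7 log2 fold changes stayed below 0 in each of these fits.

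**Figure D2:**
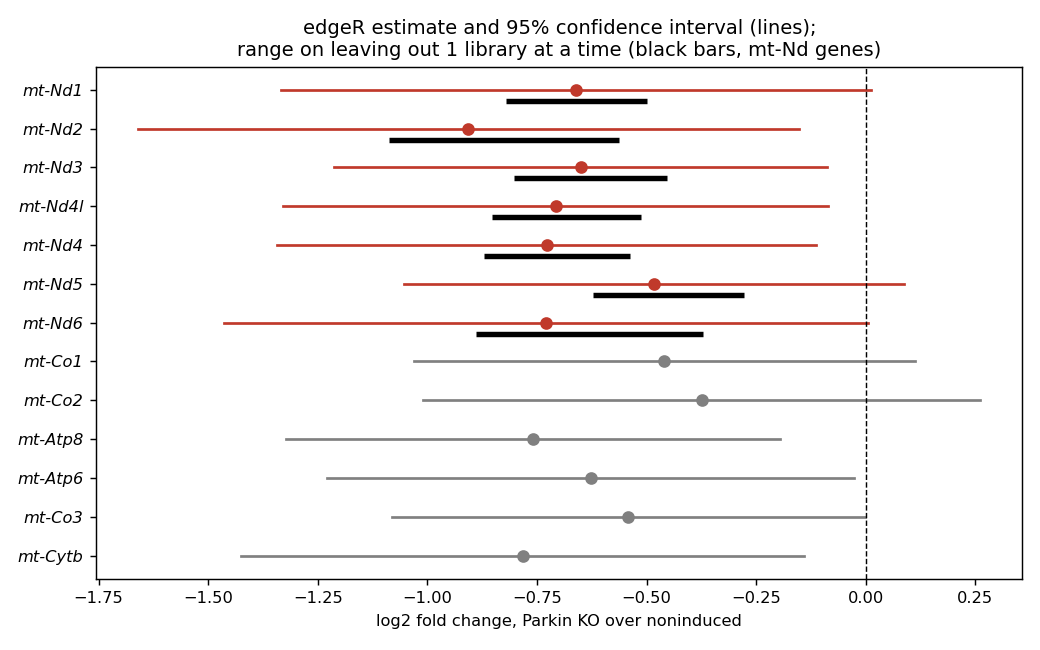
Log2 fold change of Parkin KO over noninduced for the 7 mt-Nd genes (red) and the other 6 mRNAs of mtDNA (grey), with 95% confidence intervals from edgeR as lines and, for the mt-Nd genes, the range on leaving out 1 library at a time as black bars. The mt-Nd genes run from -0.91 for mt-Nd2 to -0.48 for mt-Nd5, and the intervals of mt-Nd1, mt-Nd5 and mt-Nd6 hold 0.

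The deposited FPKM values, which are per length and were scaled by the authors, gave smaller differences for the 7 genes than the edgeR fit, on the log2(FPKM + 1) scale. Both the unit and the method differ here. On the counts, limma-voom gave -0.70 for mt-Nd2 and -0.37 for mt-Nd5, so smaller values are not particular to FPKM. The 7 FPKM differences ran from -0.66 for mt-Nd2 to -0.34 for mt-Nd5, all below 0, and 0 of the 7 passed (limma, adjusted p of 0.517 to 0.582), as did 0% of the 11775 genes tested there. mt-Nd4 alone had an unadjusted p under 0.05, against 4.37% of genes that did so with lower FPKM in Parkin KO.

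Between genes, levels were compared per length. By FPKM averaged over the 12 libraries the order was mt-Nd4l (20094 ± 9146 FPKM, SD, n = 12), mt-Nd6 (12968 ± 7189), mt-Nd1 (10108 ± 4159.7), mt-Nd2 (9844 ± 5862), mt-Nd4 (5187 ± 2326), mt-Nd3 (3326 ± 1366) and mt-Nd5 (3287 ± 1205). No gene differed from the next by more than the spread over libraries, though mt-Nd4l was above mt-Nd6, mt-Nd2 above mt-Nd4 and mt-Nd4 above mt-Nd3 within 12 of 12 libraries. mt-Nd3 was above mt-Nd5 in 6 of 12, and mt-Nd1 above mt-Nd2 in 7 of 12.

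This order changed with the length scaling. Counts divided by the annotated length and by total counts put mt-Nd1 first, at 8300.0 ± 3395 CPM per kb (SD, n = 12, here with no TMM scaling), followed by mt-Nd2 at 8245 ± 4882, mt-Nd6 at 8129 ± 4466 and mt-Nd4l at 6792 ± 3079.8. mt-Nd4 followed at 4571 ± 2044, mt-Nd5 at 3044 ± 1105 and mt-Nd3 at 1445 ± 589. Only mt-Nd5 and mt-Nd3, the last pair in this order, differed by more than the spread over libraries. Within libraries, mt-Nd4l was above mt-Nd4, mt-Nd4 above mt-Nd5 and mt-Nd5 above mt-Nd3 in 12 of 12. mt-Nd6 was above mt-Nd4l in 11 of 12, mt-Nd1 above mt-Nd2 in 7 of 12 and mt-Nd2 above mt-Nd6 in 6 of 12. By group means the first places were mt-Nd1 (6582 ± 2664 CPM per kb), mt-Nd6 (6335 ± 1421) and mt-Nd2 (5952 ± 1371) in Parkin KO hearts. In noninduced hearts they were mt-Nd2 (10538 ± 6159), mt-Nd1 (10018 ± 3342) and mt-Nd6 (9923 ± 5843; SD, n = 6 each). These places differed by less than the spread. By group medians mt-Nd1 was first in both groups, at 6808 CPM per kb in Parkin KO and 9718 in noninduced hearts. The deposited FPKM exceeded CPM per kb by 1.08 times for mt-Nd5 (1824 bases), 1.13 times for mt-Nd4 (1378), 1.19 times for mt-Nd2 (1038), 1.22 times for mt-Nd1 (957), 1.59 times for mt-Nd6 (519), 2.30 times for mt-Nd3 (348) and 2.96 times for mt-Nd4l (297). mt-Nd4l and mt-Nd4, on a shared mRNA, thus stood at a ratio of 3.93 ± 0.271 in Parkin KO and 3.82 ± 0.153 in noninduced hearts by FPKM, and at 1.51 ± 0.104 and 1.47 ± 0.0560 by CPM per kb (SD, n = 6 each). For a given gene the excess was nearly equal in all libraries, between 2.95 and 2.97 times for mt-Nd4l and between 1.58 and 1.603 times for mt-Nd6.

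**Figure D3:**
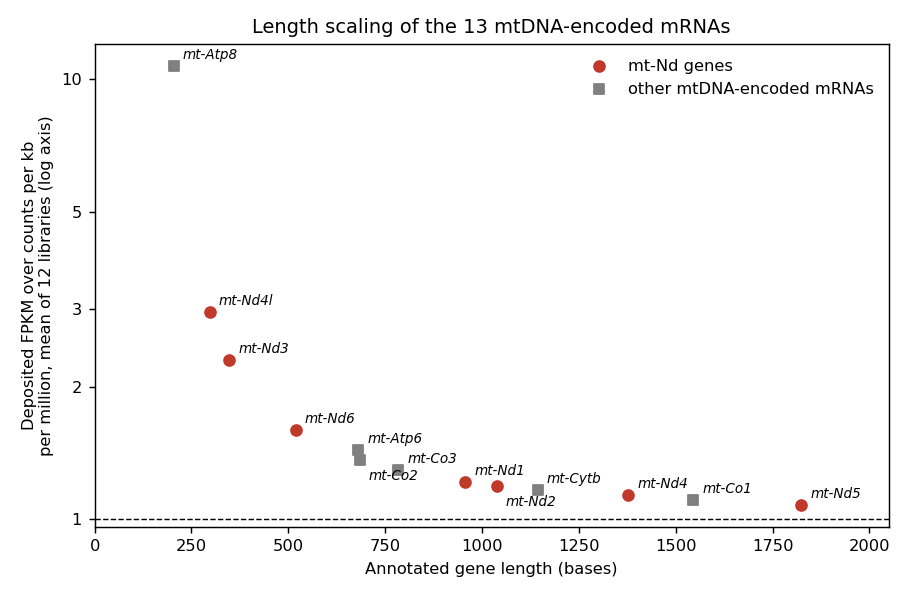
Deposited FPKM divided by CPM per kb (counts over annotated length and total counts), as a mean of 12 libraries (log axis), against annotated gene length in bases, for the 7 mt-Nd genes (circles) and the other 6 mRNAs of mtDNA (squares). The ratio is 1.08 for mt-Nd5 and 2.96 for mt-Nd4l, and 10.7 for mt-Atp8, the shortest of the 13 at 204 bases.

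Dividing by the summed counts of all 13 mtDNA-encoded mRNAs removes their common level and shows how the mt-Nd genes differ among themselves. The 7 genes together made up 38.1, 40.1, 38.7, 40.5, 36.5 and 37.6% of these counts in Parkin KO libraries 1 to 6, against 47.4, 39.9, 39.1, 35.6, 42.1 and 40.0% in noninduced libraries 1 to 6. The groups overlapped, at 38.6 ± 1.52% in Parkin KO and 40.7 ± 3.91% in noninduced hearts (SD, n = 6 each), and the library labelled noninduced 1 was the highest. The difference of -2.05 percentage points by counts was 0.571 with FPKM in place of counts, so its direction depends on the unit.

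Of the 7 genes only mt-Nd5 had a higher mean share in Parkin KO, at 6.81% against 6.12%. By the median mt-Nd6 was also higher there, at 4.71% against 4.49%. Outside the 7, mean shares were higher in Parkin KO for mt-Co1 (30.1% against 27.8%), mt-Co2 and mt-Co3, and lower for mt-Cytb, mt-Atp6 and mt-Atp8. mt-Nd5 made up 5.84, 6.60, 7.51, 7.96, 6.41 and 6.58% in Parkin KO libraries 1 to 6, against 6.58, 5.90, 5.92, 6.05, 6.56 and 5.73% in noninduced libraries 1 to 6. Of the 6 Parkin KO libraries 4 lay above every noninduced library, although Parkin KO 6 did so by less than the rounding shown. mt-Nd4 leaned lower, at 6.70, 6.65, 7.33, 7.38, 7.06 and 6.46% in Parkin KO against 7.80, 7.84, 7.08, 7.07, 7.08 and 7.26% in noninduced libraries, with 4 Parkin KO libraries below every noninduced library. Neither share was tested.

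mt-Nd1 had the widest spread in Parkin KO hearts, with 11.4, 9.84, 6.05, 7.25, 6.92 and 10.2% in Parkin KO libraries 1 to 6, against 9.11, 7.98, 9.39, 7.75, 12.1 and 10.7% in noninduced libraries 1 to 6. Parkin KO 1, 2 and 6 and noninduced 5 and 6 were high. mt-Nd2 made up 7.55 to 9.54% in Parkin KO libraries, against 7.39 to 10.2% in 5 noninduced libraries and 14.1% in the library labelled noninduced 1. mt-Nd6 made up 3.96 to 5.47% in Parkin KO libraries, against 3.66 to 4.75% in the same 5 noninduced libraries, and 6.75% in the library labelled noninduced 1. In counts mt-Nd6 stood at 1.03 times mt-Nd5 in that library. The ratio was 0.638 to 0.806 in the other 5 noninduced libraries and 0.601 to 0.785 in Parkin KO libraries. mt-Nd4l made up 1.97 to 2.60% in Parkin KO and 2.16 to 2.53% in noninduced libraries, and mt-Nd3 made up 0.465 to 0.682% in Parkin KO and 0.462 to 0.745% in noninduced libraries.

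**Figure D4:**
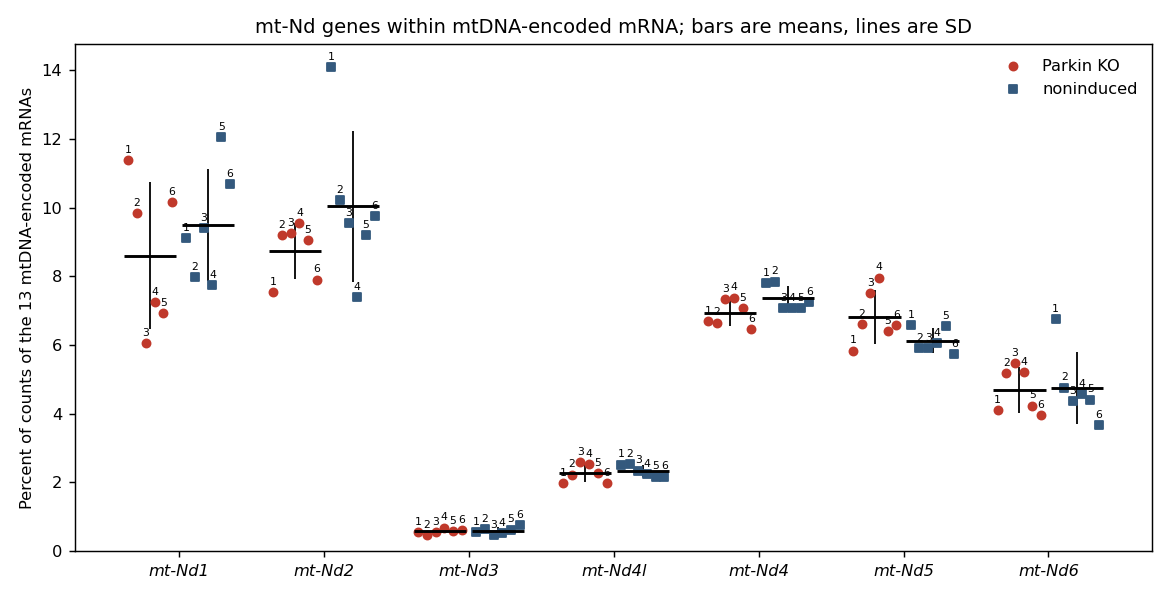
Each mt-Nd gene as a percent of the summed counts of the 13 mtDNA-encoded mRNAs in 6 Parkin KO hearts (circles) and 6 noninduced hearts (squares), with the mean as a bar, the SD as a line and replicate numbers above the points. The mt-Nd5 points of Parkin KO reach 7.96% against at most 6.58% in noninduced hearts, and mt-Nd2 and mt-Nd6 are highest in noninduced 1.

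Across the 12 libraries the 7 genes moved together, with Pearson r between log2 CPM of 0.788 to 0.992 over the 21 pairs of genes, a description of values that share libraries and total level. The highest was between mt-Nd4 and mt-Nd4l, and the lowest between mt-Nd1 and mt-Nd6. Of the 6 pairs with mt-Nd1 none exceeded 0.871, between mt-Nd1 and mt-Nd4. After removal of the group means the range was 0.746 to 0.990.

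The other 6 mRNAs of mtDNA also had log2 fold changes below 0, with 0 called and a median of -0.58 (edgeR). At an unadjusted p under 0.05, 4 of 6 were lower, against 5.54% of all genes. They comprise mt-Cytb of complex III (-0.78 ± 0.301, SE), mt-Co1 (-0.46 ± 0.267), mt-Co2 (-0.37 ± 0.298) and mt-Co3 (-0.54 ± 0.253) of cytochrome oxidase, and mt-Atp6 (-0.63 ± 0.282) and mt-Atp8 (-0.76 ± 0.264) of ATP synthase (edgeR, adjusted p of 0.417 to 0.605). The ribosomal RNAs mt-Rnr1 and mt-Rnr2, which polyadenylated libraries capture in part, were at -0.38 ± 0.27 and -0.46 ± 0.313 (edgeR, adjusted p = 0.561 and 0.552).

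The nuclear-encoded complex I genes mostly had log2 fold changes above 0. Of 37 listed, 36 had a row and 35 were tested, of which 32 had log2 fold changes above 0 and 3 below, with a median of 0.24, and 0 passed the adjusted threshold (edgeR). Over all genes tested 52% were above 0. At an unadjusted p under 0.05 there were 15 higher and 0 lower, against 5.82% of all genes higher and 5.54% lower. In the matrix arm, Ndufv1, which binds NADH and the flavin, averaged 699.6 ± 69.5 CPM in Parkin KO hearts, against 561 ± 85.9 CPM in the noninduced hearts (SD, n = 6 each), a log2 fold change of 0.32 ± 0.108. The iron-sulphur subunit Ndufs1 was at 0.27 ± 0.117. Ndufa9, at the joint of the arms, was at 0.24 ± 0.124, and Ndufb8, in the distal membrane arm, at 0.26 ± 0.106 (edgeR, adjusted p of 0.417 to 0.448 for these 4). The 36 nuclear-encoded complex I genes with a row summed to 10682 to 12356 CPM in Parkin KO hearts, against 8909 to 11626 CPM in the noninduced hearts, with noninduced 6 lowest.

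Of 17 listed assembly factors, which build complex I and are not part of it, 14 were tested, and 13 had log2 fold changes above 0 and 1 below, with a median of 0.15 and 0 called (edgeR). At an unadjusted p under 0.05, 3 were higher and 0 lower, where 52% of all genes were above 0 and 5.82% were higher at that p. The membrane-arm assembly factors Tmem126b, Acad9, Ecsit, Ndufaf1 and Timmdc1 were at 0.38 ± 0.132, 0.13 ± 0.1, 0.07 ± 0.0721, 0.06 ± 0.217 and -0.13 ± 0.135 (edgeR, adjusted p of 0.417 to 0.918).

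A further list held genes that make, protect and degrade mitochondrial RNA. Of 30 listed, 28 were tested, with 22 above 0 and 6 below, a median log2 fold change of 0.06 and 0 called (edgeR). At an unadjusted p under 0.05 there was 1 higher and 1 lower, Lrpprc and Fastkd5, against 5.82% and 5.54% of all genes. Lrpprc, which stabilizes mitochondrial mRNA and keeps it polyadenylated, stood at 98.7 ± 16.02 CPM in Parkin KO hearts, against 74.1 ± 11.8 CPM in the noninduced hearts (SD, n = 6 each), a log2 fold change of 0.41 ± 0.124. Its partner Slirp, which had 3.14 ± 1.08 CPM in Parkin KO hearts, against 2.84 ± 0.758 CPM in the noninduced hearts, was at 0.12 ± 0.24. The RNA polymerase Polrmt was at 0.15 ± 0.109 and the transcription and packaging factor Tfam at 0.05 ± 0.112. The poly(A) polymerase Mtpap was at 0.07 ± 0.113, and the degradation enzymes Pnpt1 and Supv3l1 were at -0.01 ± 0.135 and 0.00 ± 0.0764. Grsf1 and Fastk, which in human and mouse cells act on the mt-Nd6 mRNA among others, were at 0.12 ± 0.0745 and -0.05 ± 0.125 (edgeR, adjusted p of 0.417 to 0.993 for these 9). Fastkd5 was named after its values were seen.

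Immediate-early genes, which are switched on within minutes of a stimulus, were high in the same hearts. The 22 listed genes, all with reads, summed to 1010, 619, 652, 734, 660.4 and 483 CPM in Parkin KO libraries 1 to 6, against 1934, 1455, 1156, 649, 738 and 759.6 CPM in noninduced libraries 1 to 6. The 7 mt-Nd genes summed to 30047, 37557, 18449, 21698, 29358 and 26401 CPM in Parkin KO hearts, against 81596, 67722, 40222, 21424, 29913 and 27384 CPM in the noninduced hearts. Noninduced 1, 2 and 3 thus led both sums in that order, while Parkin KO 1 came next for immediate-early genes and Parkin KO 2 came next for mt-Nd genes. Of 21 tested immediate-early genes 21 had log2 fold changes below 0, 11 of them at an unadjusted p under 0.05, and 0 passed (edgeR), against 48% of all genes below 0 and 5.54% lower at that p. The part of whatever sets these RNAs in the mt-Nd values was not tested. In Parkin KO hearts fibroblast markers summed to 622 to 1208 CPM, endothelial markers to 1264 to 1481 CPM, smooth muscle markers to 587 to 759 CPM and macrophage markers to 172 to 287 CPM. In noninduced 1 to 3 the sums were 717 to 883, 1191 to 1417, 698 to 857 and 213 to 220 CPM, so that noninduced 2 and 3 lay above the Parkin KO range for smooth muscle, and noninduced 2 lay below it for endothelium. The atrial markers summed to 211, 3477 and 167 CPM in noninduced 1 to 3, so that noninduced 2 lay above the Parkin KO range of 197 to 1591 CPM. Noninduced 5 also lay above the Parkin KO range for smooth muscle (944 CPM). Noninduced 5 and 6 lay above it for fibroblasts (1370 and 1798 CPM) and atrial markers (6155 and 4115 CPM). Ventricular markers lay below the Parkin KO range of 96927 to 117264 CPM in noninduced 1, 2, 5 and 6, at 95360, 93001, 92768 and 77981 CPM. The part of these markers in the mt-Nd values was not tested.

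**Figure D5:**
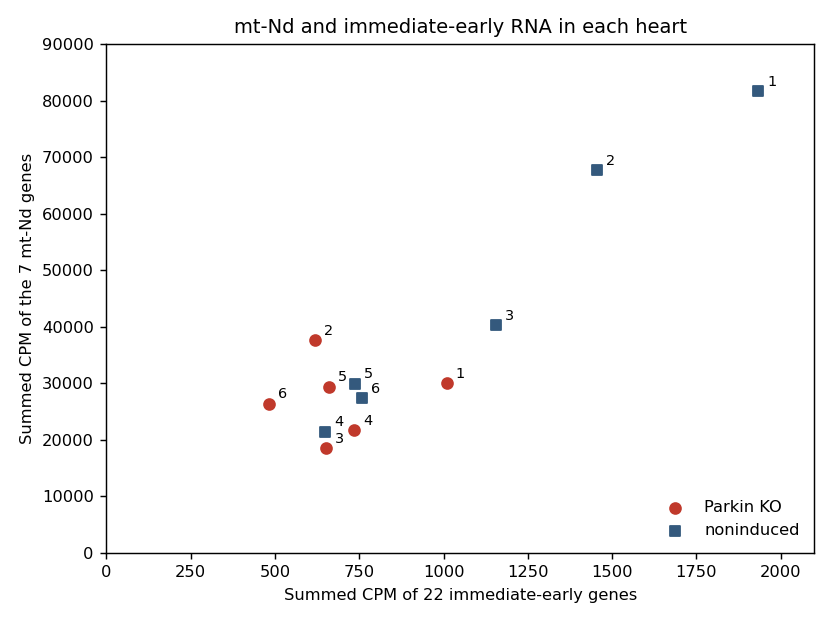
Summed CPM of the 7 mt-Nd genes against summed CPM of 22 immediate-early genes in 6 Parkin KO hearts (circles) and 6 noninduced hearts (squares), with replicate numbers. Noninduced 1, 2 and 3 lie apart at 1156 to 1934 CPM of immediate-early RNA and 40222 to 81596 CPM of mt-Nd RNA.

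Among 13020 tested genes not encoded by mtDNA, those whose log2 CPM followed the summed mt-Nd CPM most closely over the 12 libraries were Cdc42bpa, a kinase of the cytoskeleton (Pearson r = 0.983, Spearman rho = 0.944), Ramp2, a receptor partner of endothelium (0.967 and 0.895), Banf1 (0.966 and 0.909), Ncstn, a subunit of gamma-secretase (0.965 and 0.923), and Necap1, of clathrin-mediated endocytosis (0.955 and 0.888). Those most opposed were the ribosomal protein genes Rpl8 (-0.976 and -0.944) and Rpl15 (-0.974 and -0.944), Tmem160 (-0.973 and -0.944), the splicing protein gene Snrpb (-0.967 and -0.972) and Ran, a GTPase of nuclear transport (-0.963 and -0.916). These 10 were the extremes of all genes, chosen by these values, and CPM are shares of a whole, so they are given as a description with no test. Rpl8 stood at 308, 258, 415, 389.8, 348 and 360.4 CPM in Parkin KO libraries 1 to 6, against 186, 207, 252, 348, 312 and 323 CPM in noninduced libraries 1 to 6, lowest where mt-Nd genes were highest. None of the 10 passed the adjusted threshold between the groups (edgeR).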

How the data were processed

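The deposited counts are whole reads per gene, and the deposited FPKM values are scaled for length and depth, per the file headers. The tools named, per the submitters' processing notes, include HTSeq, Cufflinks 2.1, Bowtie2 and TopHat2 2.0.10, with build mm10. How multi-mapping reads were counted, and with which annotation, is not given in the sources used here, so reads shared with nuclear copies of mtDNA are uncertain. Columns marked wt were matched by number to the noninduced group. The mtDNA genes carry 37 Ensembl identifiers in the count table, all 37 matched through GENCODE M21.

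Counts were fitted in R 4.3.3 with edgeR 4.0.16 (TMM, filterByExpr, quasi-likelihood F test, group term alone, two-sided, Benjamini-Hochberg over 13050 genes, threshold 0.05). Standard errors and 95% intervals were derived from the F statistic and are approximate. FPKM were tested with limma 3.58.1 on log2(FPKM + 1) for 11775 genes with a mean of at least 1. DESeq2 1.42.0 and limma-voom were alternatives. The edgeR code was tested on simulated data of this comparison (200 changed genes among 12964) and recovered 94% of changes of 1 log2 unit. It also called 12 unchanged genes. The changed genes were drawn at random and each gene varied independently of the others. The 94% is therefore a check of the code and not the rate of detection for the mt-Nd genes, which vary together between hearts.

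The labels number the hearts of a group and say no more of how they were obtained, so p-values measure the spread between these samples, which may be technical in part. No 2 libraries of a group agreed within sampling noise. Replicate numbers did not pair the samples (correlations of deviations from -0.105 to 0.184). The members and lists were chosen with earlier results of these data known. Genes outside the 7 were named by role, or for their likeness in pattern as the 5 highest and the 5 lowest r, and 1 gene chosen by role is not reported here.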

Additional observations from a re-analysis of the deposited data

Results flagged for a closer look

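In 2 of 46 sets of 6 values (each mt-Nd gene's CPM, FPKM and share, and their summed shares, in each group) a single heart lay apart from the rest by more than 0.625 of the range, where chance gives about 1 in 20. Parkin KO 2 held 4846 CPM of mt-Nd6, against 2605 to 3402 CPM in the other Parkin KO libraries. In the library labelled noninduced 1, mt-Nd6 made up 6.75% of the counts of mtDNA-encoded mRNA, against 3.66 to 4.75% in the other noninduced libraries.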

How the results depend on the processing

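Over the 21 alternatives to the edgeR fit, all 7 mt-Nd genes kept a log2 fold change below 0 and 0 passed. On leaving out 1 library their median ran from -0.85 to -0.51, and the difference in their share of counts from -1.95 to -0.953 percentage points, against -1.54 with all 12. The difference in their share of mtDNA-encoded mRNA ran from -3.07 to -0.711, against -2.05, and was 0.571, in the opposite direction, with FPKM in place of counts. In FPKM the highest of the 13 mRNAs was mt-Atp8, at 57181 FPKM in Parkin KO and 100767 FPKM in noninduced hearts. By counts mt-Atp8 made up 1.61% and 1.76% of the 13, and its FPKM exceeded CPM per kb by 10.7 times. The part of mt-Atp8 in the change of direction was not tested. Calls over all genes were 0 on leaving out any 1 library, 10 with DESeq2 and 1 without noninduced replicates 1 and 3, none of them an mt-Nd gene. The median was -0.57 with limma-voom and -0.73 with library sizes taken from genes outside mtDNA. The fit with the replicate number as a block gave a median of -0.55, with 0 mt-Nd genes and 0 genes called (smallest adjusted p of 0.120), and 1 of 6 Parkin KO libraries resembled most the noninduced library of its own number. By FPKM 0 mt-Nd genes passed under all 15 alternatives, and 0 to 1 of all genes did. The lowest count of any mt-Nd gene in any library was 4322 reads, of mt-Nd3 in Parkin KO 3, so the spread between hearts, not depth, sets the precision.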

Other observations

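Within mtDNA-encoded mRNA, the share of mt-Nd1 and that of mt-Co2, a cytochrome oxidase subunit, were high in the same Parkin KO hearts. mt-Co2 made up 14.0, 8.45, 7.33, 6.98, 6.63 and 12.95% of these counts in Parkin KO libraries 1 to 6, against 7.26, 7.37, 8.62, 9.54, 9.34 and 9.18% in noninduced libraries 1 to 6. mt-Nd1 had 11.4% and 10.2% in Parkin KO 1 and 6, the 2 libraries in which mt-Co2 was highest. Noninduced hearts did not follow this: noninduced 4 had their highest share of mt-Co2 and their lowest of mt-Nd1 (7.75%). Noninduced 5, with 9.34% of mt-Co2, had their highest share of mt-Nd1 (12.1%). The shares add up to a whole, and no test was made.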
